A study of Mus musculus with 6 samples.

Results

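Granule-mediated killing rests on a small set of proteins, and 7 of the genes behind it, or produced alongside it, were followed here: the granzyme genes Gzma, Gzmb and Gzmk, the perforin gene Prf1, the granule genes Nkg7 and Ctsw, and the interferon-gamma gene Ifng. They were chosen as a list of named genes out of 47729 genes in the count table. All 7 were found and all 7 passed the filter on low counts, which left 15780 genes for testing. RNA had been sequenced from CD4 T cells sorted out of mouse spleen, in 3 groups of 2 libraries. WT libraries came from wild type mice and the sort gate CD3+CD4+CD25-CD45RBhi, called MNT cells and mature T cells by the submitters. ON and OFF libraries came from RBPJind mice and the gate CD3+CD4+CD25-CD45RBint, called immature naive T (INT) cells or RTE. RBPJ is the DNA-binding partner of activated Notch receptors, and these mice were induced with doxycycline (Dox) in their water. ON mice had Dox for 4 weeks, and their cells could respond to Notch as they matured. OFF mice had Dox for 3 weeks followed by a week of withdrawal, and were Notch unresponsive during peripheral maturation. WT libraries are labelled as Dox treated too, without a duration. The sources do not give age or sex, nor the promoter and cell type in which RBPJ is induced.

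Cytotoxic granules are secretory lysosomes of killer lymphocytes that are released at the contact with a target cell. Perforin opens the target's membrane, and granzymes, which are serine proteases, pass through and cut proteins inside. Naive CD4 T cells are known for holding little of this machinery, while activated effector CD4 T cells, regulatory T cells, CD8 T cells and natural killer (NK) cells can hold more. Notch signalling has been tied to granzyme and interferon-gamma expression in effector T cells.

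Between 17025551 and 19319183 counts per library were assigned to genes, and levels are given as CPM, read counts scaled to a common library size with TMM, which corrects for library composition. Whether the libraries of a group came from separate animals is not stated, so a p-value here reflects no more than the spread of these libraries, which may be technical. The induced gene Rbpj stood at 36.1 and 35.3 CPM in WT, 98.2 and 79.6 in ON, with 29.8 and 31.7 in OFF, highest in ON and lowest in OFF without overlap. Of the CD4 T cell markers all 8 were detected, with a summed level of 2294 to 2483 CPM in WT, 2747 to 3245 in ON and 2627 to 2972 in OFF. The 2 ON libraries stood further apart from each other than replicates of the other groups did, with a chi-square per degree of freedom of 65.9 over tested genes, against 9.50 in WT and 17.8 in OFF. A fold change is called where edgeR's quasi-likelihood test gave a Benjamini-Hochberg adjusted p under 0.05 over all tested genes.

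The members fell into a set that was nearly silent in WT and a pair that was not. Gzma, Gzmb, Gzmk, Nkg7 and Ifng were between 0.0581 and 2.27 CPM in every WT library, while Prf1 and Ctsw stood at 14.4 to 18.4 CPM there. In both RBPJind groups all 7 genes lay above both WT libraries. The largest differences were those of Gzmb, and the smallest those of Prf1 and Ctsw.

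**Figure D1:**
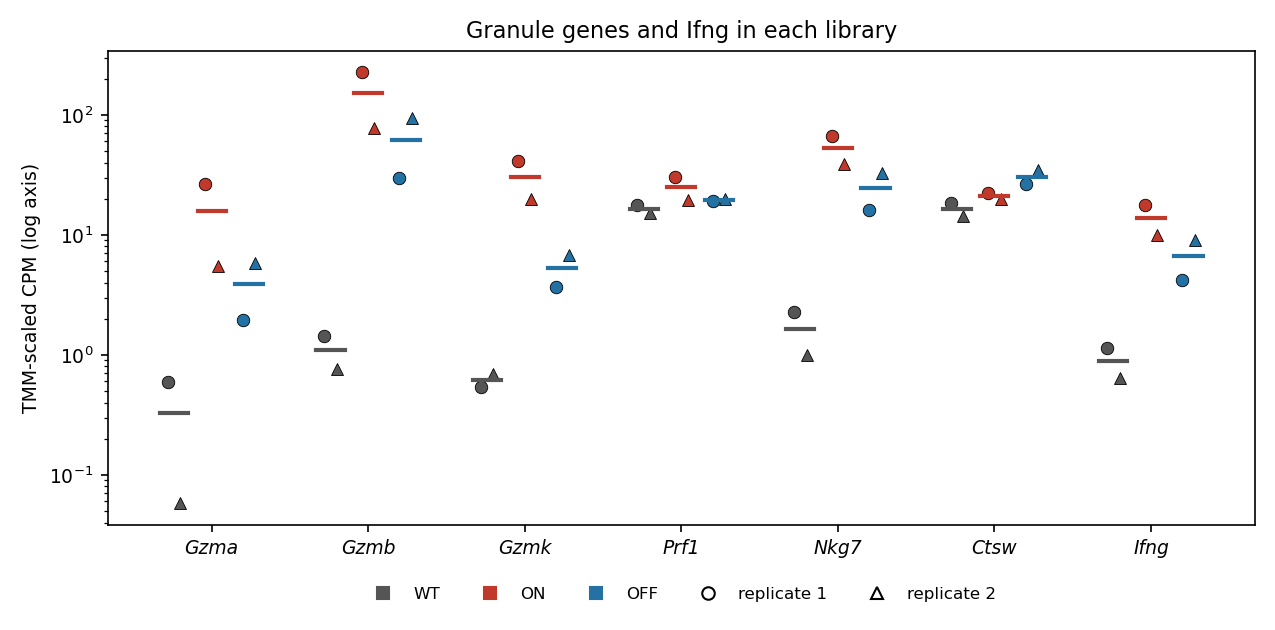
TMM-scaled CPM (log axis) of the 7 genes in each of the 6 libraries, with WT in grey, ON in red and OFF in blue; circles are replicate 1, triangles replicate 2 and bars the group means. In ON replicate 1 is above replicate 2 for every gene and in OFF below it; Gzmb reaches 226 CPM in ON 1.

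In the genome the granzyme genes lie in separate clusters. Gzma (ENSMUSG00000023132; GRCm38 chromosome 13, 113093825 to 113100981, minus strand) and Gzmk (ENSMUSG00000042385; chromosome 13, 113171608 to 113225908, minus strand) are neighbours 70.6 kb apart with no other protein-coding gene wholly between them. Gzmb (ENSMUSG00000015437; chromosome 14, 56258838 to 56262260, minus strand) belongs to a cluster that also holds Gzmc, Gzmf, Gzmg and Gzmn within 100 kb. Prf1 (ENSMUSG00000037202; 61297833 to 61304680, plus strand) and Ifng (ENSMUSG00000055170; 118441046 to 118445892, plus strand) share chromosome 10 at a great distance. Nkg7 (ENSMUSG00000004612) spans 43437073 to 43438249 of chromosome 7 on the plus strand, and Ctsw (ENSMUSG00000024910) spans 5465043 to 5468507 of chromosome 19 on the minus strand.  For Gzma, Gzmb, Gzmk, Prf1, Nkg7 and Ctsw no stretch of 50 bases of the annotated transcripts recurs in another gene's transcripts. Ifng shares 19.9% of such stretches, all of them with the gene model Gm49751, which is not analysed here. Ctsw overlaps the opposite-strand gene Fibp by 9 bases (Fibp was not called in any comparison), and an annotated Gzmk transcript spans the opposite-strand gene Esm1 within an intron. The sources do not say whether the counting used strand.

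The promoters of the granzymes and of perforin are shown because these genes, which serve the same granule, differed widely in how far they stood above WT. Promoter windows from RefSeq (GRCm38.p6) were matched for 6 of the 7 genes; Ctsw is named only. Each window is the 250 bases before the start annotated in RefSeq, 5′ to 3′ on the gene's own strand. These starts can differ from the ends of the gene spans given above, and the Gzmk window lies inside the Gzmk span. Capitals mark exact matches, on either strand, to 4 motifs: the RBPJ core TGGGAA, the RUNX site TGTGGT, the T-box site AGGTGT and the AP-1 site TGANTCA. The windows are, for Gzma chr13:113100982-113101231 (minus strand), for Gzmk chr13:113180966-113181215 (minus strand), for Gzmb chr14:56262335-56262584 (minus strand) and for Prf1 chr10:61297586-61297835 (plus strand).
Gzma: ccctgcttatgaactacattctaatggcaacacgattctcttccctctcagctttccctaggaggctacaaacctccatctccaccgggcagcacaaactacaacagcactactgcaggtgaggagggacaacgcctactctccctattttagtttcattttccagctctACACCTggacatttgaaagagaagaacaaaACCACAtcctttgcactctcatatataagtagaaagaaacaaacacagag
Gzmk: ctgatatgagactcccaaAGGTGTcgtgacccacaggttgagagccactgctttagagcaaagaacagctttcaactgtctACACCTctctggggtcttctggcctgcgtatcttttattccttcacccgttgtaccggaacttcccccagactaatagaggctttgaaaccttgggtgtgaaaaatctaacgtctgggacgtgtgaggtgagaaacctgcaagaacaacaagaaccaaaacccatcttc
Gzmb: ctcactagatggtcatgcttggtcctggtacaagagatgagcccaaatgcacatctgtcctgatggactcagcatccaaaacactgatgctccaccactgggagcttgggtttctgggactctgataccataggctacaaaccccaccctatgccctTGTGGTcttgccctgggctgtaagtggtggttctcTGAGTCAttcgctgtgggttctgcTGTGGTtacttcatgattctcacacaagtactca
Prf1: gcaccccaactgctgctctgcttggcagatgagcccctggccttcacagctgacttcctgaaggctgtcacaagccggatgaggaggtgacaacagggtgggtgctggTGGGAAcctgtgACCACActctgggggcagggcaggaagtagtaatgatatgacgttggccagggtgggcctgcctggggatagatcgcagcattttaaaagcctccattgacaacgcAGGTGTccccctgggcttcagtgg
The RBPJ core was matched in the window of Prf1 alone, 142 to 137 bases before the start, and in 21.6% of all 32851 promoter windows of the table. A RUNX match lay in the windows of 4 genes (Gzma, Gzmb with 2 matches, Prf1 and Nkg7), against 14% of all windows. T-box matches were in 4 windows (Gzma, Gzmk with 2 matches, Prf1 and Nkg7), against 11.8% of all windows. Gzmb alone had the AP-1 site, 58 to 52 bases before its start, which 6.75% of windows hold. The Ifng window held no match to any of the 4. A match describes letters only, and a window without one says nothing of sites elsewhere.

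The comparison of ON with WT sets immature cells that matured with Notch responsiveness beside mature wild type cells. Genotype, sort gate and maturity change together here, so their parts cannot be told apart. Of the 7 genes 5 were called higher in ON (Gzma, Gzmb, Gzmk, Nkg7 and Ifng), and the other 2, Prf1 and Ctsw, missed the threshold. Over all tested genes 9.68% were called higher in ON and 5.16% lower (1527 and 815 genes; 1272 and 1091 with upper quartile scaling). The median log2 fold change was 5.02 over the 7 genes and -0.02 over all tested genes. Groups did not overlap for any of the 7, each higher in ON, which held for 29.8% of all tested genes, while 30% were lower in ON without overlap. In bulk RNA more cells of a type and more RNA per cell cannot be told apart.

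Gzmb encodes granzyme B, the protease that cleaves after aspartate and can start caspase-dependent death. It was counted at 1.44 and 0.756 CPM in WT (24 and 13 reads), 226 and 77.7 CPM in ON (4424 and 1568 reads), compared with 29.9 and 94.6 CPM in OFF (518 and 1574 reads). ON and OFF libraries overlapped, with OFF 2 above ON 2, and all 4 lay far above WT. The mean level was 1.10 ± 0.481 CPM for WT, against 152 ± 105 for ON and 62.3 ± 45.7 for OFF (SD, n = 2). The log2 fold change of ON against WT was 7.11 ± 1.10 (SE; 138-fold; edgeR adjusted p = 0.0183). This call was lost without WT 1 (adjusted p = 0.176), WT 2 (0.150) or OFF 2 (0.0688), with limma-voom (0.121) and with no filter on low counts (0.108).

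Gzma encodes granzyme A, a tryptase-like granzyme that cuts after basic residues. WT libraries held 10 and 1 reads (0.598 and 0.0581 CPM), ON libraries 515 and 111 (26.3 and 5.50 CPM), and OFF libraries 34 and 97 (1.96 and 5.83 CPM). The lower ON library and the higher OFF library stood at nearly the same level. Its log2 fold change of ON against WT was 5.58 ± 1.24 (SE; adjusted p = 0.0294), the widest error of the 7 in this comparison. The call was lost without WT 1 (adjusted p = 0.226), WT 2 (0.231), OFF 1 (0.151) or OFF 2 (0.191), with limma-voom (0.224), with no filter (0.220) and with only the 4 libraries of the comparison (0.0509). Without WT 1 the log2 fold change was 7.93, and without WT 2 it was 4.73.

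Gzmk encodes granzyme K, the tryptase-like neighbour of granzyme A. It stood at 0.538 and 0.698 CPM in WT (9 and 12 reads), 40.9 and 19.7 in ON (801 and 398 reads), against 3.70 and 6.79 in OFF (64 and 113 reads). The 3 groups did not overlap, and OFF lay between WT and ON. In ON the level was 48.4-fold that of WT (log2 fold change 5.60 ± 0.56, SE; adjusted p = 9.07e-04), and the call held under all 13 alternatives.

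Nkg7 encodes a granule membrane protein needed for efficient degranulation. Its levels were 2.27 and 0.988 CPM in WT, 67.1 and 39.1 in ON, with 15.9 and 32.7 in OFF. Every ON library was above every OFF library, and every OFF library above WT. ON exceeded WT 32.5-fold (log2 fold change 5.02 ± 0.55, SE; adjusted p = 0.00287), a call that held under all 13 alternatives.

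Ifng, the cytokine gene of type 1 responses, is no granule gene but is made by the same effector cells. It was measured at 1.14 and 0.640 CPM in WT, 17.7 and 9.91 in ON, compared with 4.22 and 9.13 in OFF. ON 2 and OFF 2 were close, with the ON library the higher. Its log2 fold change of ON against WT was 3.95 ± 0.52 (SE; 15.5-fold; adjusted p = 0.00223), again with the call kept under all 13 alternatives.

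Prf1 encodes perforin, the pore-forming protein without which granzymes do not reach the target's interior. WT libraries were at 17.7 and 15.1 CPM, ON at 30.2 and 19.5, and OFF at 19.2 and 19.7. Only ON 1 stood apart from the other 5 libraries. The log2 fold change of ON against WT was 0.60 ± 0.21 (SE; 95% interval 0.13 to 1.07; adjusted p = 0.0851). It was called without ON 2 (0.91, adjusted p = 0.00671), a fit in which ON 1 alone represents its group.

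Ctsw encodes cathepsin W, a cysteine protease found mainly in cytotoxic lymphocytes. It was at 18.4 and 14.4 CPM in WT, 22.4 and 19.9 in ON, against 26.3 and 34.5 in OFF. OFF was the highest group here, the reverse of the other 6 genes, for which ON had the highest mean. ON differed from WT by a log2 fold change of 0.37 ± 0.19 (SE; 95% interval -0.05 to 0.79; adjusted p = 0.218).

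**Figure D2:**
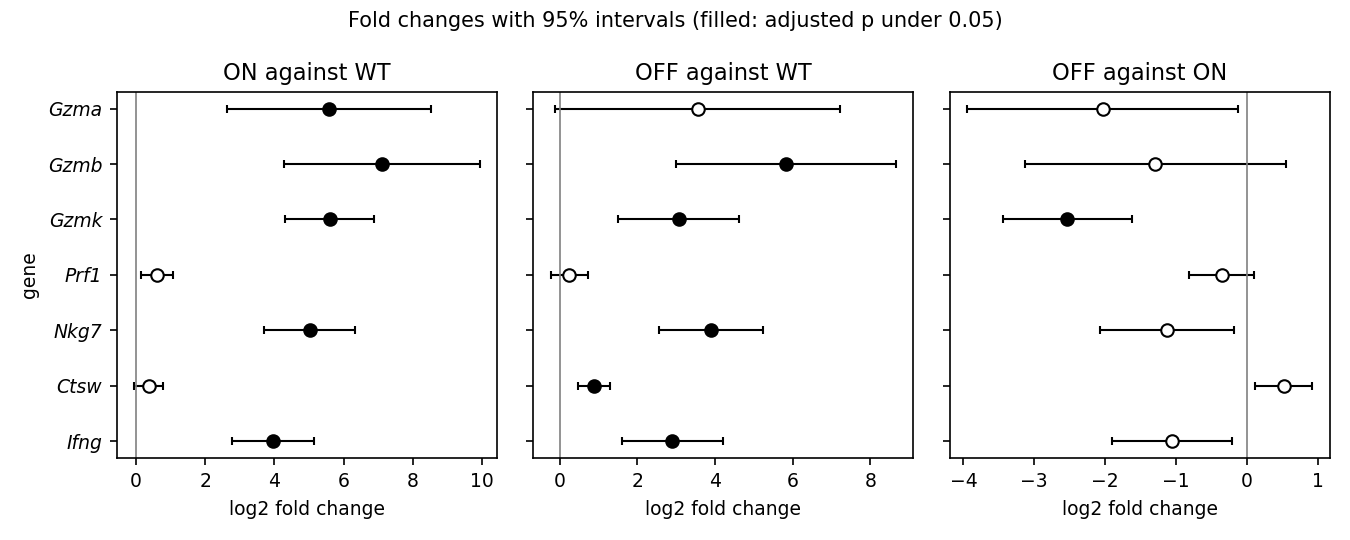
Log2 fold changes from edgeR (points) with 95% intervals (bars) of the 7 genes for ON against WT, OFF against WT and OFF against ON; filled points have an adjusted p under 0.05. Against WT, 5 genes are filled in each panel, and between OFF and ON the single filled point is Gzmk at -2.53.

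The comparison of OFF with WT sets cells that finished maturing without a Notch response beside the same 2 WT libraries, with the same differences of genotype, gate and maturity. Because both comparisons share the WT libraries, their values are given side by side and no overlap between them is counted as a result. Of the 7 genes 5 were called higher in OFF (Gzmb, Gzmk, Nkg7, Ctsw and Ifng), against 4.7% of all tested genes called higher and 2.14% called lower in OFF. All 7 lay above WT without overlap, as did 29.8% of tested genes, with 25.8% below WT. The median log2 fold change was 3.06, against 0.01 over all tested genes. For Gzmb it was 5.82 ± 1.10 (SE; 56.6-fold; edgeR adjusted p = 0.0490), for Nkg7 3.90 ± 0.57 (14.9-fold; adjusted p = 0.0128), for Gzmk 3.06 ± 0.68 (8.36-fold; adjusted p = 0.0366) and for Ifng 2.90 ± 0.58 (7.47-fold; adjusted p = 0.0213). Ctsw rose by a smaller amount, 0.89 ± 0.19 on the log2 scale (1.85-fold; adjusted p = 0.0246). Gzma had a log2 fold change of 3.55 ± 1.54 (95% interval -0.12 to 7.21; adjusted p = 0.240). Prf1 had one of 0.25 ± 0.21 (95% interval -0.23 to 0.73; adjusted p = 0.567).

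None of these 5 calls held in every fit, and the main losses were these. Without WT 1 or WT 2 all 5 were lost: the adjusted p was then 0.337 and 0.199 for Gzmb, 0.241 and 0.140 for Gzmk, 0.0808 and 0.0788 for Nkg7, 0.0740 and 0.149 for Ctsw, and 0.126 and 0.124 for Ifng. Without OFF 2 the calls of Gzmb (0.343), Gzmk (0.280), Ctsw (0.160) and Ifng (0.0864) were lost. Without OFF 1 those of Gzmb (0.110) and Gzmk (0.0507) were lost, and without ON 2 that of Gzmb (0.0629). Limma-voom called Ctsw only, with adjusted p of 0.252 for Gzmb, 0.190 for Gzmk, 0.0756 for Nkg7 and 0.0824 for Ifng. With no filter on low counts Gzmb (0.188) and Gzmk (0.101) missed the threshold, and with RLE scaling Gzmb did (0.0592). Gzma was called without ON 1 (0.0396) and with only the 4 libraries of the comparison (0.0394). In every one of these fits the 7 genes remained higher in OFF than in WT.

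OFF and ON share genotype and gate and differ in the last week of Dox, so this comparison addresses what followed the withdrawal of Notch responsiveness; an effect of Dox itself cannot be told apart. Gzmk alone of the 7 genes was called, lower in OFF, against 0.425% of tested genes called lower in OFF. Its level was 5.79-fold lower in OFF (log2 fold change -2.53 ± 0.40, SE; edgeR adjusted p = 0.0369). The call was lost under 8 of 13 alternatives, among them the fits without WT 1 (adjusted p = 0.102), WT 2 (0.101), OFF 1 (0.199) or OFF 2 (0.0971), with limma-voom (0.0757), with no filter (0.0936) and with only the 4 libraries of the comparison (0.0988), while the log2 fold change stayed between -3.05 and -1.91 over all 13 alternatives. Gzmk, Nkg7 and Ifng were lower in OFF without overlap, which held for 23.3% of tested genes. Ctsw was higher in OFF without overlap, as were 23.4% of tested genes. Gzma, Gzmb and Prf1 overlapped between the groups.

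The other 6 genes missed the threshold between OFF and ON, with intervals that leave room for sizeable differences. Log2 fold changes of OFF against ON were -2.03 for Gzma (95% interval -3.95 to -0.12; adjusted p = 0.239), -1.29 for Gzmb (-3.14 to 0.56; 0.403) and -0.35 for Prf1 (-0.82 to 0.11; 0.385). For Nkg7 the value was -1.13 (-2.07 to -0.18; 0.198), for Ifng -1.05 (-1.90 to -0.20; 0.178) and for Ctsw 0.52 (0.11 to 0.93; 0.169). The median over the 7 genes was -1.13, against 0.00 over all tested genes, and none of the 7 changed sign under any alternative. For Gzma the value ran from -3.03 to -0.50 over the alternatives, and for Gzmb from -2.37 to -0.32. For Prf1 it ran from -0.65 to -1.14e-04, which is practically no difference. The smallest difference of each of these genes came from the fit without ON 1. ON 2 and OFF 2 held 5.50 and 5.83 CPM of Gzma, 77.7 and 94.6 CPM of Gzmb, and 19.5 and 19.7 CPM of Prf1.

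Within each RBPJind group the same library was the higher one for every gene of the 7. ON 1 was above ON 2 for all 7, which 50.4% of tested genes showed, and OFF 2 was above OFF 1 for all 7, against 50.9%. Both held together for all 7, against 31.1% of tested genes. The order was shared by the regulatory T cell markers Foxp3, Il2ra and Ikzf2 (3 of 3), by 7 of 8 markers of memory or effector CD4 T cells, by 2 of 3 tested markers of innate-like and gamma delta T cells and by 3 of 5 of NK cells. Among the CD8 T cell markers the combined order held for neither Cd8a nor Cd8b1. It held for 3 of 8 CD4 T cell markers, 2 of 4 of B cells and 1 of 3 of myeloid cells. For plasmacytoid dendritic cells it held for 0 of 3. Replicate numbers tie no ON library to an OFF library, and the part of these markers in the order was not tested.

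To compare genes with each other, levels were divided by the length of annotated exons. Per kilobase of exon Gzmb was the most abundant of the 7 genes in ON at 106 ± 73.1 CPM per kb (SD, n = 2; libraries 157 and 54.1), above 98.1% of tested genes. Nkg7 followed at 58.0 ± 21.7, then Gzmk at 21.8 ± 10.8, Gzma at 15.8 ± 14.6, Ctsw at 11.2 ± 0.943, Ifng at 10.7 ± 4.27 and Prf1 at 9.62 ± 2.92 CPM per kb. Both Nkg7 libraries lay above both Gzmk libraries, and every other pair of neighbours in this order overlapped. In OFF the order was Gzmb (43.4 ± 31.8 CPM per kb), Nkg7 (26.6, libraries 17.4 and 35.8), Ctsw (16.1 ± 3.08), Prf1 (7.53 ± 0.146), Ifng (5.15 ± 2.69), Gzma (3.87 ± 2.72) and Gzmk (3.78 ± 1.58). Both Ctsw libraries lay above both Prf1 libraries in OFF, and these above both Ifng libraries, while every other pair of neighbours overlapped. Gzmk, behind only Gzmb and Nkg7 in ON, had the lowest mean in OFF, where its libraries overlapped those of Gzma. In WT Ctsw (8.69 ± 1.52 CPM per kb) and Prf1 (6.34 ± 0.724) came first, and Nkg7 was at 1.78 ± 0.994. Gzmb (0.763 ± 0.335), Ifng (0.686 ± 0.271), Gzmk (0.445 ± 0.0811) and Gzma (0.326 ± 0.380) were lowest. Among these lowest genes, Gzmb lay above Gzmk in both libraries and the other pairs overlapped. Gzmb per kb was below Prf1 in both WT libraries and above it in all 4 libraries of the RBPJind mice.

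**Figure D3:**
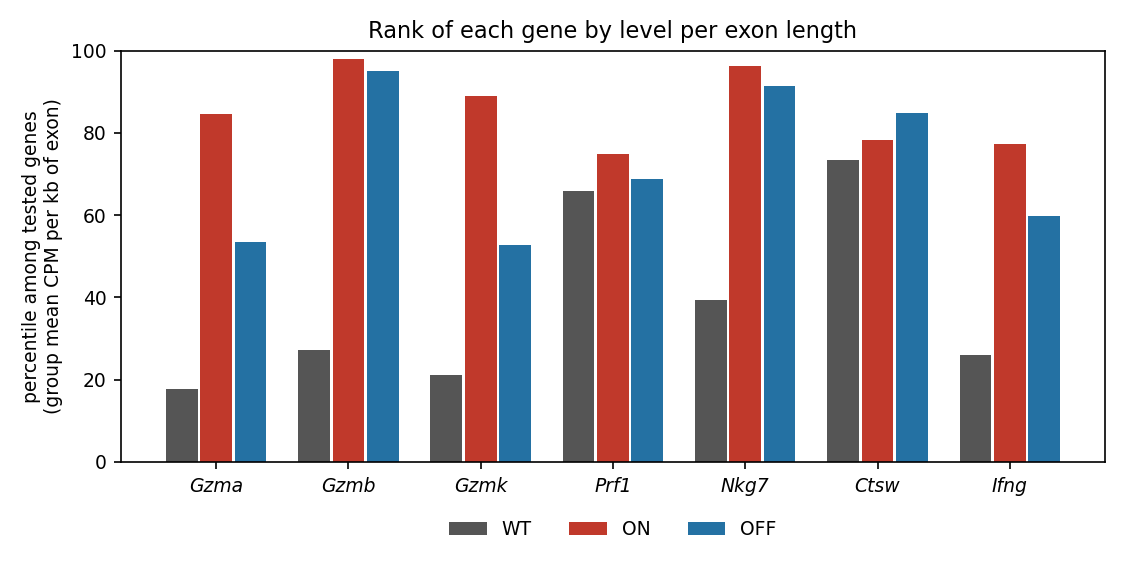
Percentile of each gene's group mean level (CPM per kb of exon) among the 15780 tested genes, in WT (grey), ON (red) and OFF (blue). Gzmb moves from 27.2 in WT to 98.1 in ON and 95.1 in OFF, while Prf1 stays between 65.9 and 74.9.

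Other granzyme genes did not share these levels. Gzmc, Gzmd, Gzme, Gzmf, Gzmg and Gzmn were too low to test, and the most abundant of them, Gzmc, the neighbour of Gzmb, had 8 and 7 reads in WT, 9 and 8 in ON, with 7 and 22 in OFF. Gzmd, Gzme, Gzmg and Gzmn had 0 reads in both OFF libraries, which allows up to 3 reads in each. Gzmm, which encodes granzyme M and lies elsewhere in the genome, was tested and not called: it was at 2.27 and 3.26 CPM in WT, 2.56 and 2.48 in ON, compared with 1.85 and 2.10 in OFF.

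Genes that work with the granule were read from 8 lists of 71 genes, of which 63 were tested. Between ON and WT 26 of them were called higher and 1 lower (27 of 63, against 14.8% of all tested genes in either direction). Between OFF and WT 17 were called, each higher, against 6.83%. Counts of higher genes in the single lists below stand beside 9.68% of all tested genes called higher in ON and 4.7% in OFF. Between OFF and ON 1 was called, lower in OFF, against 1.03%; 19 of the 63 had an unadjusted p under 0.05, against 19.1% of all tested genes. Of the 27 calls between ON and WT 9 held with each library left out in turn (Ciita, Cst7, Ctsh, Eomes, Gbp3, Il12rb1, Il2rb, Prdm1 and Serpinb6b), and of the 17 between OFF and WT 5 did (Ciita, Ctsh, Eomes, Il12rb1 and Il2rb).

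Granule content and processing genes (8 of 9 tested) had 4 called higher in ON than in WT and 2 in OFF. Cst7, encoding cystatin F, an inhibitor of the proteases that activate granzymes, was at 3.41 and 3.72 CPM in WT, 21.9 and 12.5 in ON, against 7.51 and 10.9 in OFF (log2 fold change 2.27 in ON and 1.37 in OFF; edgeR adjusted p = 0.00262 and 0.0443). Ctsh, encoding cathepsin H, rose by 2.17 in ON and 2.82 in OFF on the log2 scale. Srgn, encoding serglycin, the proteoglycan on which granzymes are stored, rose by 1.05 in ON (adjusted p = 0.0258); it was at 96.0 and 149 CPM in OFF against 89.8 and 84.2 in WT, and was not called there. The chaperone gene Calr, the most abundant of the list, rose by 0.92 in ON. Ctsc, encoding the dipeptidyl peptidase that activates granzymes, was at 39.2 and 40.4 CPM in WT, 38.8 and 30.5 in ON, with 40.0 and 49.6 in OFF. Leaving out WT 1, WT 2 or ON 1 ended the call of Srgn in ON (adjusted p up to 0.167). Calls were also lost for Calr without WT 1 or WT 2 (0.126) and for Cst7 in OFF when WT 1, WT 2 or OFF 2 was absent (0.25).

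Of 14 genes of granule exocytosis, the docking and fusion machinery, 5 rose in ON and 3 in OFF. Stx11, a syntaxin gene whose loss impairs degranulation, went from 1.02 and 2.09 CPM in WT to 18.6 and 9.76 in ON, compared with 6.12 and 12.1 in OFF (log2 fold changes 3.18 and 2.54). Sytl3 and Sytl2, genes of synaptotagmin-like effectors of Rab27, rose by 3.31 and 0.99 in ON and by 2.29 and 0.75 in OFF. Rab27a, the GTPase gene of granule docking, and Vamp8 rose by 0.73 and 0.79 in ON. The 2 most abundant genes of the list, Lyst (231 and 222 CPM in WT) and Ap3b1 (125 and 122), were not called, nor was the priming factor gene Unc13d (89.1 and 91.1 CPM in WT, 106 and 113 in ON). Calls in ON were lost for Sytl2 (adjusted p = 0.114) and Sytl3 (0.0513) without WT 2, for Stx11 without WT 1 (0.0701), for Rab27a without WT 1 or WT 2 (up to 0.0694) and for Vamp8 without WT 1, WT 2 or ON 1 (up to 0.220). Calls in OFF were lost for Stx11 (up to 0.217) and Sytl2 (up to 0.257) without WT 1, WT 2 or OFF 2, and for Sytl3 without WT 1, WT 2, OFF 1 or OFF 2 (up to 0.274).

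Inhibitors of granzymes protect the cell that carries them. Serpinb6b went from 6.52 and 8.26 CPM in WT to 43.2 and 27.2 in ON, against 10.9 and 11.4 in OFF, without overlap between groups. It was the single related gene called between OFF and ON (log2 fold change -1.66, edgeR adjusted p = 0.0122; 0.0549 without OFF 1), and it was called higher in ON than in WT (2.25; adjusted p = 6.18e-04). Serpinb9, which encodes the inhibitor of granzyme B, was at 10.8 and 10.2 CPM in WT, 24.3 and 16.0 in ON, with 11.6 and 14.7 in OFF; it rose by 0.94 in ON (adjusted p = 0.0248), which did not hold when WT 1, WT 2 or ON 1 was left out (up to 0.166). Serpinb6a, with Serpinb6b the most abundant, was at 16.4 and 14.2 CPM in WT and 21.6 and 21.7 in ON and was not called.

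The death ligand genes Fasl and Tnfsf10 rose in ON by 0.98 and 0.80 on the log2 scale, Tnfsf10 rose in OFF by 0.79, and the TRAIL receptor gene Tnfrsf10b fell by 1.07 in ON. Fas, with Tnfsf10 the most abundant of these 4 genes, was at 14.5 and 16.6 CPM in WT and 16.2 and 19.3 in ON. Calls in ON were lost for Fasl (adjusted p up to 0.248) and Tnfsf10 (up to 0.176) without WT 1, WT 2 or ON 1, and for Tnfrsf10b without any library but ON 2 and OFF 2 (up to 0.256). In OFF, Tnfsf10 missed the threshold without WT 1, WT 2 or OFF 2 (up to 0.242).

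Of 13 transcription factors that govern cytotoxic genes 8 were called higher in ON than in WT and 6 higher in OFF, with the others not called. Eomes, a T-box factor of cytotoxic and memory T cells, went from 7.42 and 5.41 CPM in WT to 70.8 and 43.1 in ON, compared with 41.4 and 47.4 in OFF (log2 fold changes 3.15 and 2.79; edgeR adjusted p = 1.71e-04 and 5.75e-04). Tbx21, encoding T-bet, the T-box factor of type 1 responses, was at 7.30 and 2.27 CPM in WT, 24.5 and 19.5 in ON, against 11.1 and 20.4 in OFF; it rose by 2.21 in ON. Bhlhe40, a regulator of cytokine production, rose by 4.68 in ON and 3.59 in OFF, and Prdm1, encoding Blimp-1, by 2.41 and 1.46. Zeb2 rose by 1.48 and 1.83, and Hopx by 1.86 and 1.44. Id2 and Nfil3 rose by 1.67 and 1.56 in ON, and Zfp683, encoding Hobit, rose by 1.94 in OFF. Runx1 and Zbtb7b, the most abundant factors, were lower in ON than in WT without overlap (log2 fold changes -0.42 and -0.32). Such a separation held for 30% of all tested genes, and neither factor was called. Runx3 was not called either (91.9 and 95.5 CPM in WT, 116 and 102 in ON, 105 and 94.9 in OFF).

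Several of these factor calls were lost when a library was left out. In ON the losses were those of Tbx21 without WT 2, ON 1 or ON 2 (adjusted p up to 0.0704), Id2 without WT 1, WT 2, ON 1 or ON 2 (0.280), Bhlhe40 without WT 1, WT 2, OFF 1 or OFF 2 (0.106), Hopx without WT 1 or WT 2 (0.106), Nfil3 without WT 1, WT 2 or ON 2 (0.179) and Zeb2 without WT 2 (0.113). In OFF they were those of Prdm1 (0.195) and Zfp683 (0.159) without WT 1, WT 2 or OFF 2, Bhlhe40 without WT 1, WT 2, OFF 1 or OFF 2 (0.392), Hopx without WT 1, WT 2, ON 2 or OFF 2 (0.301) and Zeb2 without WT 2 (0.0572).

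**Figure D4:**
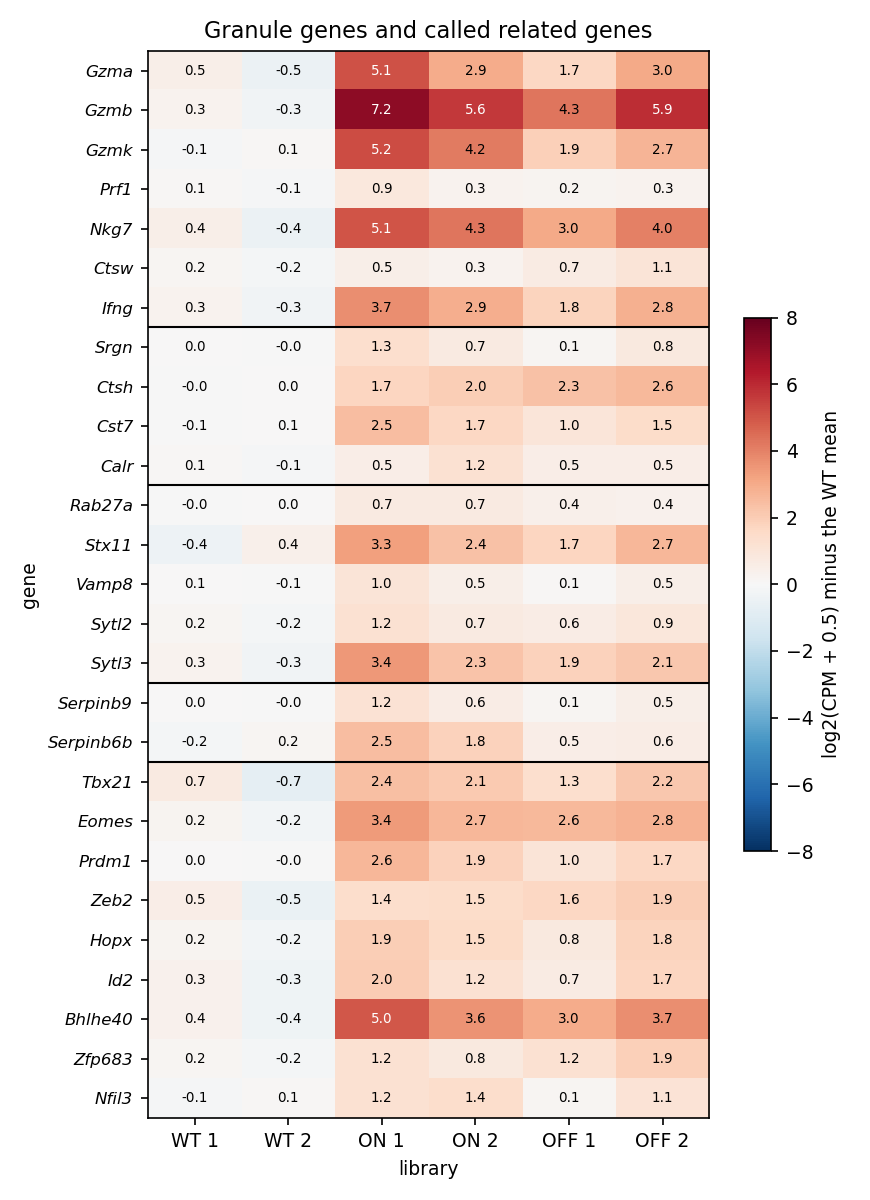
Log2(CPM + 0.5) minus the WT mean, per library (columns), for the 7 genes (top block) and the 20 genes called in any comparison among granule content, exocytosis, inhibitor and regulator genes (blocks below, in that order). Red is above WT; Gzmb shows the strongest colours, followed by Gzmk, Nkg7, Gzma and Bhlhe40 in ON 1, and Prf1 and Ctsw stay pale.

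Of 8 cytokine receptor genes that feed into or read interferon-gamma, 3 rose in each comparison with WT. Il2rb, the shared receptor chain of interleukins 2 and 15, went from 25.1 and 16.5 CPM in WT to 227 and 173 in ON, with 97.2 and 153 in OFF (log2 fold changes 3.27 and 2.59), and Il12rb1, a chain of the interleukin 12 receptor, rose by 2.58 and 1.94. Il18rap rose by 2.21 in ON, and Il12rb2 by 1.77 in OFF. Il27ra, with the highest mean over the 6 libraries, was not called. Among 11 targets of interferon-gamma, Gbp3 rose by 1.85 in ON and 1.15 in OFF and Ciita by 2.70 and 2.36; Gbp4 and Irf1, the most abundant, were not called, and the list's median log2 fold change was 0.06 in ON and -0.07 in OFF. Ciita is also expressed by B cells and dendritic cells, whose markers differed between the groups too; their part in this result was not tested. Calls were lost for Il18rap in ON without any library but ON 2 (adjusted p up to 0.182), for Il12rb2 in OFF without WT 1, WT 2 or OFF 2 (up to 0.294) and for Gbp3 in OFF without WT 1 (0.0745).

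Markers of other cells that carry granules differed between the groups as well, and their part in the results above was not tested. Of 10 NK cell markers 5 were tested; the summed level of the 10 was 4.36 to 7.66 CPM in WT, 8.18 to 10.1 in ON and 9.30 to 12.6 in OFF. The defining NK genes Ncr1 and Klrb1c were at 0.173 to 1.32 CPM in all 6 libraries, and Klra8 and Klra9 had 0 reads in ON. The called members, Tyrobp and Fcer1g, are also genes of myeloid cells (log2 fold changes of ON against WT 2.05 and 1.75). The other 3 tested members went the other way in ON without a call (Fcgr3 -1.32, Klrb1c -1.08 and Ncr1 -0.54). The median log2 fold change over the 5 was -0.54 for ON against WT, but 0.48 for OFF against WT. In CD8 T cell markers the sum was 13.8 to 14.4 CPM in WT, 18.1 to 23.7 in ON and 14.2 to 18.0 in OFF. Cd8a was at 0.419 and 1.28 CPM in WT, 5.72 and 5.85 in ON, compared with 3.06 and 4.09 in OFF. Cd8b1, the only other gene of this list, made up most of each sum and was not called in any comparison. Its log2 fold change against WT was 0.19 for ON, but -0.09 for OFF. Regulatory T cell markers summed to 14.0 to 14.8 CPM in WT, 111 to 174 in ON and 169 to 326 in OFF, with Foxp3 at 2.45 and 2.67, 38.0 and 30.8, and 36.6 and 78.7 CPM although CD25+ cells were gated out. Markers of memory or effector CD4 T cells summed to 395 to 512, 690 to 796 and 533 to 900 CPM. Il7r, the largest part of that sum in WT, went the other way, at 358 and 285 CPM in WT and 115 and 159 in ON (169 and 142 in OFF), and was called lower in both. Ccl5, Cd44, S100a6, Lgals1 and Cxcr3 of the same list were called higher in both, and Itgb1 was called higher in OFF only. Innate-like and gamma delta T cell markers summed to 8.78 to 12.1, 20.4 to 34.3 and 20.2 to 38.5 CPM, most of it from Cxcr6 and Trdc. Zbtb16, a factor of innate-like T cells, was called lower in ON, at 2.57 and 2.27 CPM in WT and 0.307 and 0.743 in ON (1.56 and 1.80 in OFF). Mast cell and basophil markers were at 0.538 CPM or less. Sums for plasmacytoid dendritic cells were 16.1 to 16.4, 21.0 to 33.9 and 43.4 to 53.6 CPM, for myeloid cells 11.0 to 11.3, 19.6 to 20.1 and 21.5 to 35.1, and for B cells 3.02 to 3.35, 9.71 to 11.8 and 14.4 to 24.5. Of 39 tested markers 21 were called between ON and WT (14.8% of all tested genes were), 22 between OFF and WT (6.83%) and 2, Ccl5 and Tcf4, between OFF and ON (1.03%), of which 5, 5 and 0 held with each library left out.

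For each of the 7 genes the 3 genes of most similar profile were sought among 9961 named genes, by the root mean square difference of log2 values over the 6 libraries, each centred on its own mean. Gzmk was nearest to Il10 (0.31), Penk (0.31) and Gcg (0.35), and Gzma had Penk (0.42) and Plek (0.45) among its 3 nearest. Nkg7 had Bhlhe40 (0.25) and Chst2 (0.26) among its 3 nearest, and Ifng was nearest to Myo1f (0.12), Chsy1 (0.14) and Plek (0.15). For Gzmb the nearest profiles, those of Ccl5, Fgl2 and Ccl4, were 0.81 to 0.89 away. The distance is not scaled to how far a gene varies, so it tends to be larger for widely varying genes such as Gzmb. It tends to be smaller for flat ones such as Prf1 and Ctsw, so distances of different members are not compared. Prf1 was nearest to Atp5k (0.04), Ccdc138 (0.06) and Ranbp1 (0.08), and Ctsw to Entpd7 (0.07), Scd2 (0.10) and Basp1 (0.10).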

How the data were processed

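The deposited table holds raw read counts per Ensembl gene for 6 libraries, with no normalization. Alignment was to GRCm38, per the labels' protocols. R 3.6.2 and edgeR appear in the submitters' processing notes. Which aligner, counter and strand setting were used is not given in the sources used here. Summary rows (5) of unassigned reads were left out; 33.7% to 46.9% of reads in the table were assigned to genes. Of 47729 identifiers 47310 matched GENCODE M21 (GRCm38). filterByExpr (minimum count 10, total 15) left 15780 genes; libraries were scaled by TMM. All 6 libraries entered 1 fit without an intercept in edgeR 4.0.16 (R 4.3.3; robust quasi-likelihood, 3 residual degrees of freedom, Benjamini-Hochberg, threshold 0.05), tested on simulated counts beforehand. Intervals are 95% from the moderated degrees of freedom. Alternatives were RLE and upper quartile scaling, no filter, DESeq2 1.42.0, limma-voom 3.58.1, 4 libraries only, each library left out in turn, and a replicate block. A lone library left in a group is assumed to vary like the others. WT libraries enter the OFF against ON test by way of filtering, scaling and the pooled spread alone. Named genes were the 7 members, and in each related list the called and the 2 most abundant; Ctsc, Unc13d and Runx3 were added after their values were seen. Some genes that this rule or the profile search would name are not reported here. Members and lists were chosen with earlier results of these data known. Genes near the members were examined within 100 kb, a window chosen after the values were seen.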

Additional observations from a re-analysis of the deposited data

How the results depend on the processing

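Over the 7 genes, 3 comparisons and 13 alternatives, 224 of 273 fold changes kept direction and side of the threshold, 46 lost a call, 3 gained one and 0 reversed. The cause of these losses was not tested. Of the 7 genes, the number called between OFF and ON went from 1 to 0 with no filter, limma-voom, 4 libraries only and the replicate block (in edgeR 5 of the 7 had an unadjusted p under 0.05, against 19.1% of tested genes); between ON and WT from 5 to 3 with no filter and limma-voom; and between OFF and WT from 5 to 3 with no filter and the replicate block and to 1 with limma-voom. Leaving out a library gave 0 to 1, 3 to 6 and 0 to 6. Related genes called between OFF and ON went from 1 to 3 with DESeq2 and 0 to 5 with a library left out; between ON and WT (27) to 10 to 27; between OFF and WT from 17 to 7 with limma-voom, 10 with the replicate block and 6 to 24. Calls over all genes between OFF and ON went from 162 to 469 with DESeq2, 58 with 4 libraries only, 60 with the replicate block and 67 to 619 with a library left out; between ON and WT from 2342 to 1441 with the replicate block and 368 to 2397; between OFF and WT from 1078 to 584 with limma-voom, 663 with the replicate block and 223 to 1602. With the longest transcript as length, Prf1 was 7.86 CPM per kb in OFF and Ctsw 10.5 in WT, 13.5 in ON and 19.4 in OFF.

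The titles give groups the same replicate numbers, and nothing says that a number marks a shared animal or day. Differences of replicate 1 from 2 correlated at 0.08 between WT and ON, -0.21 between WT and OFF and -0.20 between ON and OFF over 15780 genes, so the numbers were not taken as pairs. With the replicate block Gzmk lost its call between OFF and ON (adjusted p = 0.0757), as did Gzmb (0.0607) and Ctsw (0.0522) between OFF and WT. RLE and upper quartile scaling shifted the all-gene median log2 fold change by -0.08 to 0.00. Depth limits Gzma, Gzmb, Gzmk, Nkg7 and Ifng in WT, where 1 to 38 reads stand behind each value.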

Other observations

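Genes beside the granzymes and Nkg7 were read for levels of their own; these were singled out after their values were seen. Esm1, known as an endothelial gene, lies on the opposite strand inside an intron of an annotated Gzmk transcript. WT libraries held 5 and 8 of its reads, ON libraries 114 and 39, and OFF libraries 11 and 28. It was called higher in ON than in WT (log2 fold change 3.31, edgeR adjusted p = 0.0208) but neither between OFF and ON (-1.74, adjusted p = 0.167) nor between OFF and WT (1.57, adjusted p = 0.402). In CPM Esm1 was highest in ON 1 (5.83), then ON 2 (1.93), OFF 2 (1.68) and OFF 1 (0.635). Gzmk, Nkg7 and Ifng had this same order of libraries. Gzma and Gzmb shared the highest and the lowest library, but had OFF 2 above ON 2. Whether the reads counted for Esm1 come from that gene or from unspliced Gzmk was not tested.

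Within 100 kb of Nkg7 lie 10 other protein-coding genes, of which 5 were tested. Reads of Cldnd2 numbered 8 and 4 for WT, 50 and 41 for ON, and 12 and 17 for OFF (ON against WT 2.67, edgeR adjusted p = 0.00879), and Siglecg had 13 and 17, 68 and 77, and 38 and 67 (2.04, adjusted p = 0.0136; OFF against WT 1.80, adjusted p = 0.0429). By contrast, none of the 4 protein-coding genes within 100 kb of Gzmb had enough reads to test, and Ctsw had 12 tested neighbours, of which 2, Cfl1 (0.51, adjusted p = 0.0321) and Sart1 (0.52, adjusted p = 0.0478), were called between ON and WT, where 14.8% of all tested genes were.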
